A study of Rattus norvegicus with 4 samples.

Results

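Gene expression after KHS101 at 1.7 uM was set against expression after 1 uM retinoic acid given with forskolin, the positive control of the study, in cultured rat hippocampal progenitor cells. KHS101 is a synthetic compound known for turning neural progenitors towards the neuronal fate in rats, and the comparison asks how its transcript profile differs from that of an established differentiating treatment. The difference was taken as the log2 level on the KHS101 1.7 uM array minus the log2 level on the retinoic acid with forskolin array (RA-forskolin below) for all 14217 named genes on the array, which is every named gene of the series. Each treatment was 1 Affymetrix array, so no value has a replicate error and no test could be run. The differences describe these 2 arrays.

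All groups were progenitor cells from Fisher 344 rats, of early passage, plated at 1000 cells per square centimetre in N2-supplemented medium and kept with compound for 4 days. Besides KHS101 1.7 uM and RA-forskolin, the series holds 1 array of KHS101 at 5 uM and 1 array of DMSO, the solvent, at 0.1%. The forskolin concentration, the age of the rats and whether the arrays came from separate cultures are not given in the sources used here. The sample label names both agents of the positive control, whereas the design text mentions only retinoic acid.

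Retinoic acid binds nuclear receptors (RAR with RXR) that sit on their target genes and switch them on, among them Cyp26a1, Dhrs3 and Rarb, which clear, store or sense retinoids. Forskolin activates adenylyl cyclase, and the cAMP it produces acts through protein kinase A on the transcription factor CREB. ATF4 is a transcription factor made when cells restrict translation under amino acid shortage, mitochondrial damage or unfolded protein, and its targets import amino acids, charge transfer RNAs and make serine, asparagine and cysteine. KHS101 itself is known as a ligand of TACC3, a protein of the mitotic spindle, and in human glioblastoma cells of the mitochondrial chaperone HSPD1.

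The sequences of 7 promoters are shown because their genes stood among the largest differences or, for the amino acid transporter Slc1a4 and the threonyl-tRNA synthetase Tars1, in the gene groups described first. The first 6 hold the composite ATF4 and C/EBP motif TGATGNAAN within the 250 bases before the gene start, and the last holds a retinoic acid direct repeat. Sequences are from RefSeq (GRCr8), read 5′ to 3′ along the gene's strand, and the capitals mark the motif. In all 7 the motif lies on the other strand, so the capitals are its reverse complement.
Trib3, chr3:161275534-161275575, minus strand: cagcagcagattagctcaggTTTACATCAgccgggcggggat
Chac1, chr3:126795943-126795991, plus strand: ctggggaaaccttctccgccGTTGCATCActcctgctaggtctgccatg
Pck2, chr15:32997603-32997641, plus strand: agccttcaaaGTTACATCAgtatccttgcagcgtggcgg
Nupr1, chr1:190645929-190645977, minus strand: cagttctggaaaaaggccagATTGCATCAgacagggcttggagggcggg
Slc1a4, chr14:98761770-98761812, minus strand: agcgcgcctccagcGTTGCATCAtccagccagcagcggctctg
Tars1, chr2:62114803-62114850, minus strand: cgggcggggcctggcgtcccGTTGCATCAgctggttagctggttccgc
Cyp26a1, chr1:244883710-244883766, plus strand: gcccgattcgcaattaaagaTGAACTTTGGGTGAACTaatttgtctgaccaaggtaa

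The cells carried progenitor markers on both arrays. Sox2, a transcription factor of neural stem cells, had log2 levels of 13.82 with KHS101 1.7 uM and 13.81 with RA-forskolin, and the intermediate filament gene Nes had 11.97 and 10.67 in the same order. Of 17 progenitor and radial glia genes on the array, Sox1, Pax6, Hes5, Prom1 and Emx2 lay at the floor of log2 5 on both arrays, below which values were not read as signal. Neurod1 and Dcx, markers of newborn neurons, Gfap, an astrocyte filament, and Bdnf lay at the floor on all 4 arrays. Oligodendrocyte lineage genes such as Olig2 and Sox10 were above the floor on all 4 arrays.

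Of the 14217 genes, 8588 were above the floor on at least 1 of the 2 arrays and are called measured. With KHS101 1.7 uM, 509 of them (5.93%) were higher by 2-fold or more than with RA-forskolin, and 463 (5.39%) were lower. The median log2 difference over the measured genes was 0.00295, with quartiles of -0.32 and 0.33. The extremes were wide, at 5.70 for Cth and -8.06 for Mgp. In 46 of the higher and 43 of the lower genes 1 of the 2 arrays was at the floor, and their fold changes are lower bounds. Where an array read just above the floor, as for Hmox1 and Cd44 with RA-forskolin, the fold is close to such a bound. Differences of 8-fold or more were found for 24 higher and 22 lower genes.

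**Figure D1:**
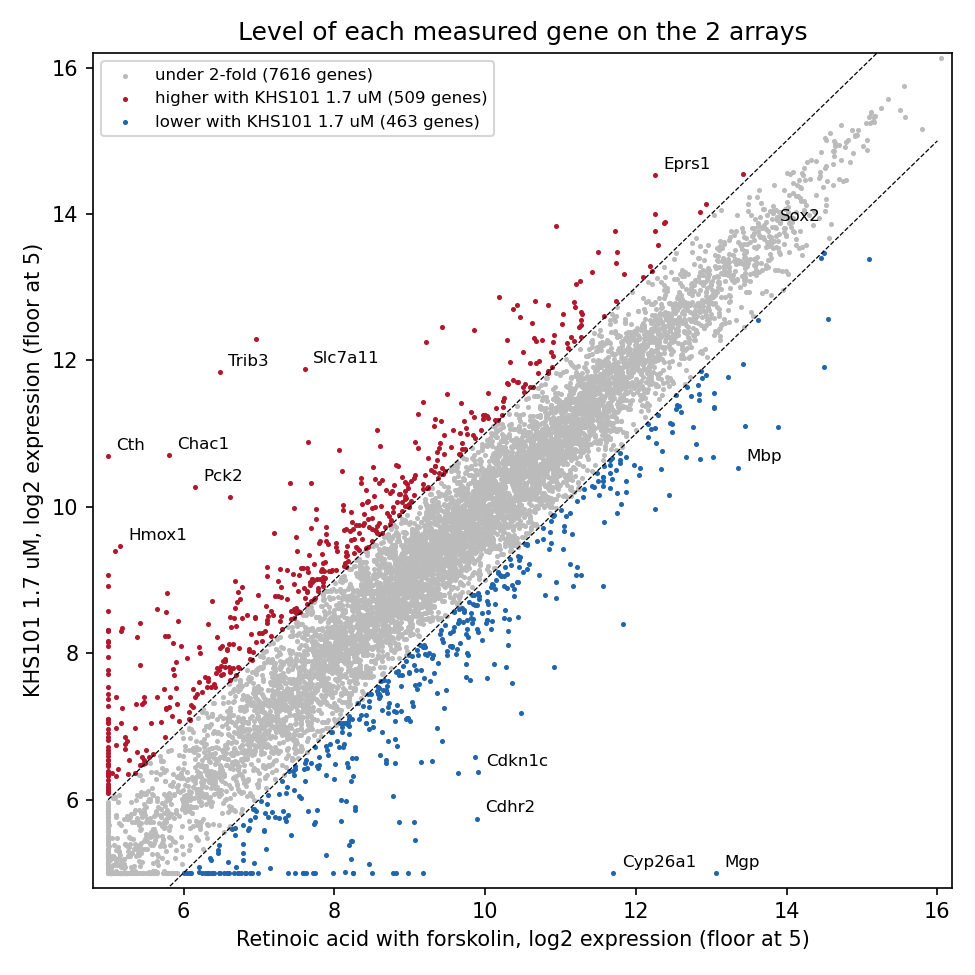
Log2 expression of each of the 8588 measured genes on the KHS101 1.7 uM array (vertical axis) and the RA-forskolin array (horizontal axis), with dashed lines at 2-fold. The 509 red genes lie above the band and the 463 blue genes below it; Trib3, Chac1, Cth and Slc7a11 stand far above, and Mgp and Cyp26a1 far below.

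The 2 compared arrays were close in the measures of signal and RNA quality that could be read. Between 8389 and 8471 named genes were above the floor on each of the 4. The control probe sets of beta-actin, a gauge of RNA integrity, differed between their 3′ and 5′ ends by 1.40 log2 units with KHS101 1.7 uM and 1.37 with RA-forskolin, and those of hexokinase by 0.80 and 0.66. The other 2 arrays were further apart, at 1.54 with KHS101 5 uM and 1.26 in DMSO for beta-actin. For hexokinase they were at 0.96 and 0.69. Those of GAPDH lay between -0.16 and -0.11 on the 4 arrays. None of 11 reference genes differed by 2-fold, and their median difference was 0.13. Calls were more frequent at low expression: 9.61% of genes with a mean log2 level of up to 7 were higher and 9.18% lower, against 3.63% and 3.12% of genes above 11. For called genes with further probe sets above the floor, 149 of 152 such probe sets of the higher genes and 145 of 146 of the lower genes differed in the same direction, and 71.7% and 65.1% passed 2-fold. Probe sets of 1 gene share the RNA and the array, so this covers probe noise only. With the median over a gene's probe sets in place of the brightest one, Cd93, Mx2, Hspa9, Lonp1, Vars1, Pop1, Ndrg2, Nr4a2, Egr2, Ak4, Cdca2, Nkd1 and Tcf7l2 were under 2-fold. With the floor at log2 6, Tnc, Hopx, Gsta4, Kdr, Nr4a2, Id1, Irf9, Smad9 and Sorcs1 were under 2-fold.

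Genes of the ATF4 stress response were higher with KHS101. Of the 15 measured members 14 were higher by 2-fold, 0 were lower, and the median log2 difference was 2.13, against 0.00295 over all measured genes. Trib3, a pseudokinase induced by ATF4 that restrains it in turn, had log2 levels of 11.84 with KHS101 1.7 uM and 6.48 with RA-forskolin, beside 12.84 with KHS101 5 uM and 5.75 in DMSO. The 41.0-fold difference came almost wholly from the KHS101 side, as the RA-forskolin level stood close to DMSO. Chac1, an enzyme that breaks down glutathione, was 29.9-fold higher, with 10.71 for KHS101 1.7 uM, 5.81 for RA-forskolin, 11.27 for KHS101 5 uM and 6.78 for DMSO. Here the RA-forskolin array was the lowest of the 4.

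The transcription factors of this response were higher as well. Atf4 itself measured 13.77 with KHS101 1.7 uM and 11.73 with RA-forskolin, a 4.12-fold difference, against 12.04 in DMSO. Ddit3, which encodes the stress factor CHOP, was 4.38-fold higher (12.59 and 10.46), and Atf5, a relative of Atf4, 8.23-fold (12.26 and 9.22). Atf3, another stress-induced factor, read 8.30 with KHS101 1.7 uM and 9.51 with KHS101 5 uM but was at the floor with RA-forskolin and in DMSO, so it was at least 9.86-fold higher. Nupr1, a small stress-induced chromatin protein, had the same pattern, with 9.07 against the floor, or at least 16.8-fold. Eif4ebp1, a brake on cap-dependent translation, was 8.13-fold higher. The lone member under 2-fold was the lipoprotein receptor Vldlr, at 0.59. Stc2, Gdf15 and Fgf21 were at the floor on both arrays.

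Amino acid import followed the same order. Among 13 measured amino acid transporters 8 were higher, 0 lower, and the median was 1.84. Slc7a11, the cystine and glutamate exchanger, had 11.88 with KHS101 1.7 uM and 7.61 with RA-forskolin, and 12.28 with KHS101 5 uM and 7.40 in DMSO, which put both KHS101 arrays high and the other pair low. The neutral amino acid carriers Slc1a5 and Slc1a4 were 7.53-fold and 5.45-fold higher, and the glycine transporter Slc6a9 was 4.22-fold higher. The partners of the large neutral amino acid exchanger, Slc7a5 and Slc3a2, were 3.71-fold and 2.82-fold higher. Slc6a15, a branched-chain amino acid transporter outside the list, was 9.45-fold higher. Slc38a3 and Slc43a2 ran the other way, with differences of -0.74 and -0.29 that did not reach 2-fold.

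All 19 measured cytosolic aminoacyl-tRNA synthetases, the enzymes that load amino acids onto transfer RNA, had a positive difference, and 13 passed 2-fold, with a median of 1.35. Eprs1, which charges glutamate and proline, had the largest difference of the group, with 14.53 for KHS101 1.7 uM and 12.26 for RA-forskolin (4.84-fold), beside 14.74 for KHS101 5 uM and 12.35 for DMSO. The 2 other probe sets of Eprs1 above the floor differed by 2.33 and 2.72. Cars1 for cysteine, Yars1 for tyrosine and Vars1 for valine were 3.62-fold, 3.59-fold and 3.53-fold higher. Qars1 (glutamine) and Hars1 (histidine) differed least, by 0.15 and 0.30.

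Enzymes that make serine, asparagine and folate-bound carbon units numbered 8 higher and 0 lower of 12 measured, with a median of 1.15. Asns, asparagine synthetase, had 13.83 with KHS101 1.7 uM against 10.94 with RA-forskolin, a 7.42-fold difference, and stood at 13.92 with KHS101 5 uM and 11.79 in DMSO. Relative to DMSO, KHS101 1.7 uM was higher by 2.05 log2 units and RA-forskolin differed by -0.84, so both sides contributed to the gap. The same split was seen for Mthfd2, a mitochondrial folate enzyme, at 12.42, 9.86, 12.39 and 11.02 with KHS101 1.7 uM, RA-forskolin, KHS101 5 uM and DMSO. Aldh18a1, the first enzyme of proline synthesis, and Shmt2, the mitochondrial serine hydroxymethyltransferase, were 5.04-fold and 5.03-fold higher. Pck2, mitochondrial phosphoenolpyruvate carboxykinase, was 17.4-fold higher, with 10.27 and 6.15, and its other probe set differed by 2.38 with RA-forskolin at the floor.

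Cysteine supply and glutathione enzymes were uneven. Of 10 measured genes 3 were higher and 0 lower, with a median of 0.73. Cth, cystathionine gamma-lyase, which makes cysteine, read 10.70 with KHS101 1.7 uM and 11.37 with KHS101 5 uM and lay at the floor with RA-forskolin and in DMSO, at least 51.8-fold higher. The other called members were Chac1 and Slc7a11, both described above. Gclm and Gclc, the subunits that start glutathione synthesis, differed by -0.15 and 0.94 and were not called.

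**Figure D2:**
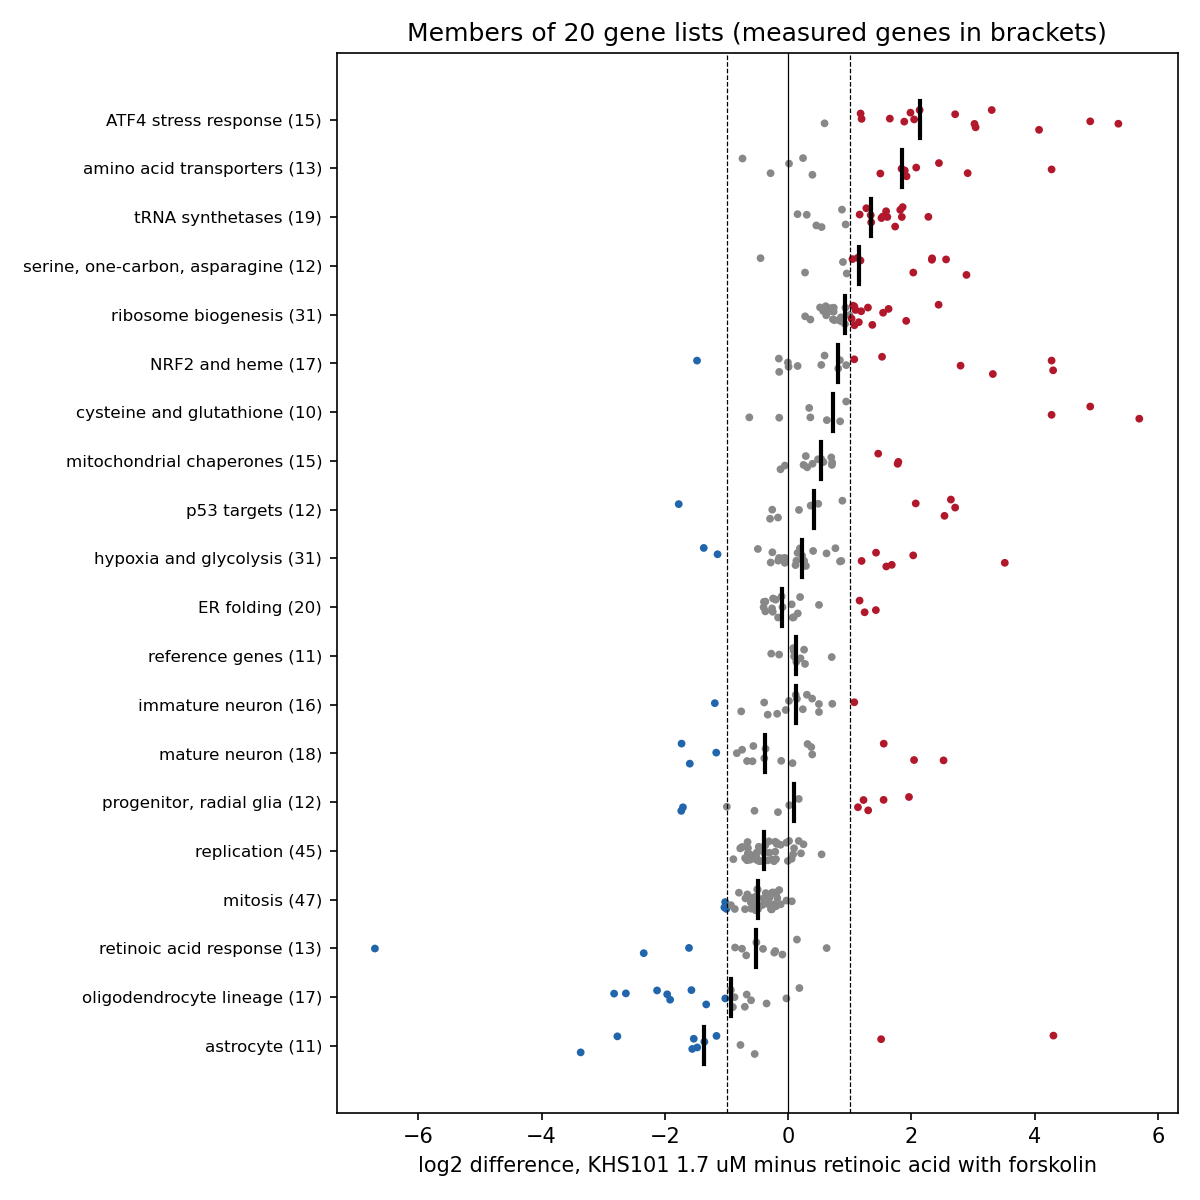
Log2 difference (KHS101 1.7 uM minus RA-forskolin) of each measured member of 20 of the 45 gene lists, in red where higher by 2-fold, blue where lower and grey otherwise, with a black bar at the list's median and dashed lines at 2-fold. ATF4 stress genes and tRNA synthetases lie to the right of 0 and amino acid transporters mostly so, with medians from 1.35 to 2.13. Oligodendrocyte and astrocyte genes lie mostly to the left, with medians of -0.93 and -1.36.

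The composite ATF4 and C/EBP motif was searched on both strands in the 250 bases before the gene start, with a match counted for a gene if any of its annotated starts had one. It was found for 25 of 425 higher genes with a promoter in the RefSeq table (5.88%), 3 of 364 lower genes (0.824%) and 96 of 6511 measured genes in neither class (1.47%). Over all 33469 promoters of the table the share was 3.38%. Genes had like numbers of annotated starts in the 3 classes, at 1.10, 1.14 and 1.10 on average. In the Trib3 promoter shown above the motif spans bases 22 to 14 before the start, in Nupr1 bases 56 to 48 and in Chac1 bases 168 to 160. Among the 25 are further transporters, Slc7a1 and Slc38a1, and the synthetases Nars1, Mars1, Tars1 and Iars1. The NRF2 element TGACNNNGC was in 14.6% of higher, 12.4% of lower and 13.4% of the other genes, and the cAMP element TGACGTCA in 3.06%, 1.37% and 3.59%. Matches to these motifs may overlap, but none can be read as another from the same start. A match describes letters in a window and no binding was measured.

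Oxidative stress and heme genes under the factor NRF2 numbered 6 higher and 1 lower of 17 measured, with a median of 0.81. Hmox1, heme oxygenase, had log2 levels of 9.46 with KHS101 1.7 uM and 5.16 with RA-forskolin, a 19.7-fold difference, beside 11.83 with KHS101 5 uM and 6.39 in DMSO. The 5 uM array exceeded the 1.7 uM array, and RA-forskolin lay below DMSO. Srxn1, sulfiredoxin, had 8.32 against the floor, at least 9.99-fold, and the quinone reductase Nqo1 was 6.95-fold higher, with 8.57 and 5.77. Nfe2l2, which encodes NRF2, stood at 10.25 and 9.18. Gsta4, a glutathione transferase for lipid aldehydes, was the 1 gene called lower, at the floor with KHS101 1.7 uM and 6.48 with RA-forskolin. Slc7a11, described above, is also among the 6 higher genes. The other 10 measured genes, Gclc and Gclm among them, were under 2-fold.

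Genes of protein quality control were called unevenly, beside 5.93% higher and 5.39% lower over all measured genes. Of 15 mitochondrial chaperones and proteases 3 were higher: Hspa9, the mitochondrial HSP70, with 13.20 and 11.42, the protease Lonp1 with 11.10 and 9.33, and the protease subunit Clpp with 9.67 and 8.21, each with KHS101 1.7 uM first. Hspd1, the chaperone named above as a KHS101 ligand, was 13.56 with KHS101 1.7 uM, 12.85 with RA-forskolin and 13.38 in DMSO, a difference under 2-fold. Cytosolic heat shock genes numbered 2 higher and 1 lower of 13. Bag3, a co-chaperone, was 5.72-fold higher, while the small heat shock protein gene Cryab was 2.11-fold lower. Of 20 endoplasmic reticulum folding genes 3 were higher, Atf6, Herpud1 and Edem1, and the median was -0.10. Hspa5, the main chaperone of that compartment, read 14.03 with KHS101 1.7 uM and 14.12 with RA-forskolin. None of the 26 proteasome genes and none of the 19 autophagy and lysosome genes was called.

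Ribosome biogenesis separated the 2 treatments from the RA-forskolin side. All 31 measured genes had a positive difference, 13 passed 2-fold and none was lower, with a median of 0.92. Set against DMSO, the median of these genes was 0.04 with KHS101 1.7 uM and -0.86 with RA-forskolin. Polr1b, a subunit of RNA polymerase I, had 10.07 with KHS101 1.7 uM, 8.45 with RA-forskolin, 10.40 with KHS101 5 uM and 9.57 in DMSO. The RA-forskolin array was the low one of the 4. Shq1, an assembly factor of H/ACA particles, and Pop1, a protein of RNase P and MRP, were 5.43-fold and 3.77-fold higher, again with RA-forskolin lowest. Myc, a transcription factor that drives this programme, measured 11.73 with KHS101 1.7 uM, 10.38 with RA-forskolin, 12.10 with KHS101 5 uM and 12.02 in DMSO, so its 2.56-fold difference too lay with the low RA-forskolin value.

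**Figure D3:**
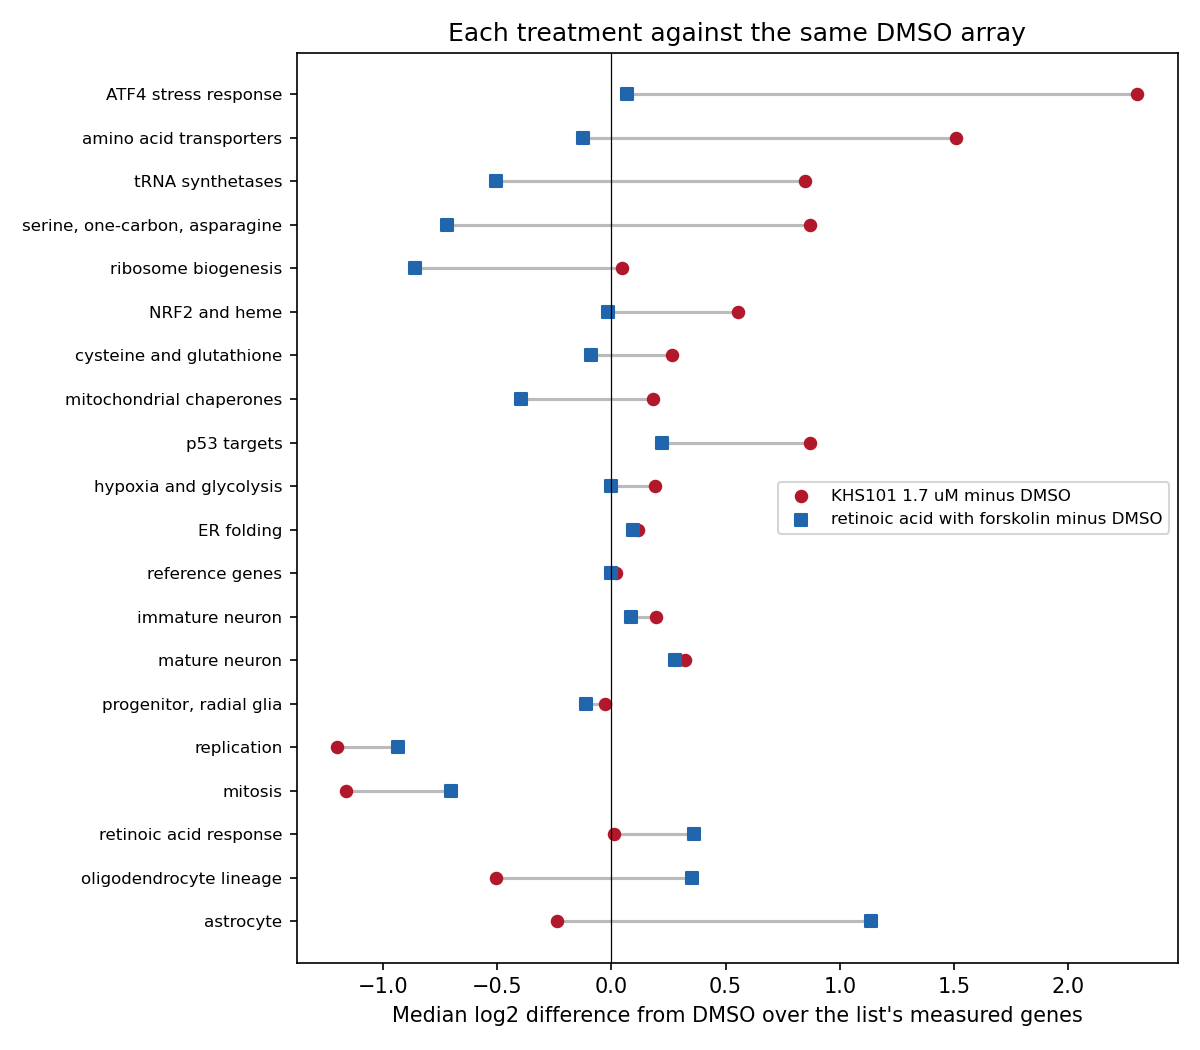
Median log2 difference from DMSO over the measured members of the same 20 lists, for KHS101 1.7 uM (red circles) and RA-forskolin (blue squares); both use the same DMSO array. The ATF4 list is displaced with KHS101 alone (2.30 and 0.07), ribosome biogenesis with RA-forskolin alone (0.04 and -0.86), and replication genes lie below 0 for both (-1.20 and -0.93).

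Cell cycle genes differed little between the treatments, and both sat below DMSO. Of 45 measured replication genes none was called in either direction, 37 had a negative difference, and the median was -0.39. Their median difference from the shared DMSO array was -1.20 with KHS101 1.7 uM and -0.93 with RA-forskolin. Mcm3, part of the replicative helicase, had 8.47 with KHS101 1.7 uM, 9.22 with RA-forskolin, 6.67 with KHS101 5 uM and 10.38 in DMSO, the order of the arrays being the 5 uM dose lowest and DMSO highest. Among 47 mitosis genes 46 had a negative difference but only Kif20b, Spc24 and Cdca2 passed 2-fold, by 2.05-fold, 2.03-fold and 2.00-fold, and another probe set of Cdca2 differed by -0.35. Tacc3, the spindle protein that KHS101 binds, was 10.03 with KHS101 1.7 uM and 10.45 with RA-forskolin, and 11.28 in DMSO. Of 12 measured E2F and retinoblastoma genes and their partners 2 were lower and 0 higher. The lower ones were E2f8 and Tfdp2, by 2.31-fold and 2.48-fold.

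The inhibitors of cyclin-dependent kinases were opposed. Cdkn1a, which encodes p21, stood at 10.33 with KHS101 1.7 uM and 7.69 with RA-forskolin, 10.87 with KHS101 5 uM and 7.33 in DMSO, a 6.23-fold difference with both KHS101 arrays high. Cdkn1c, which encodes p57, was 11.6-fold lower, with 6.37 and 9.91, and with 5.28 for KHS101 5 uM and 7.82 for DMSO, so that RA-forskolin lay above DMSO and both KHS101 arrays below it. The remaining 6 measured inhibitors, among them Cdkn1b and Cdkn2a, were not called. Of 12 p53 targets 4 were higher (Sesn2, Cdkn1a, Aen and Bbc3) and Sesn1 was lower. Sesn2, a sestrin also induced by ATF4, was 6.54-fold higher and Bbc3, which promotes apoptosis, 4.20-fold. The other probe set of Aen differed by 0.27 alone. Ccnd2, a G1 cyclin, was above DMSO with both treatments, at 13.11 with KHS101 1.7 uM and 12.51 with RA-forskolin against 10.73 in DMSO.

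A few genes of the retinoic acid response were far lower with KHS101 than with RA-forskolin. Cyp26a1, the retinoic acid hydroxylase, was 11.70 with RA-forskolin and at the floor on the KHS101 1.7 uM, KHS101 5 uM and DMSO arrays, at least 104-fold lower with KHS101. Its promoter, printed above, holds the direct repeat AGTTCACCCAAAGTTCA on the other strand, 92 to 76 bases before the start. With the half-sites AGGTCA and GGTTCA in any combination 0 of 7300 measured genes had such a repeat spaced by 5, and with AGTTCA added, a choice made after seeing these promoters, 3 did. Outside that list Mgp, matrix Gla protein, which limits calcification, had the largest difference in size of all measured genes, 13.06 with RA-forskolin against the floor with KHS101 1.7 uM, or at least 267-fold lower, and 5.13 in DMSO.

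Other retinoid genes did not share 1 order of the arrays. Dhrs3, which reduces retinal to retinol, had 10.68 with KHS101 1.7 uM, 13.03 with RA-forskolin, 10.85 with KHS101 5 uM and 5.74 in DMSO. It was 5.07-fold lower with KHS101 than with RA-forskolin, while both KHS101 arrays stood far above DMSO. Rarb, a retinoic acid receptor, read 10.84 with KHS101 1.7 uM, 11.70 with RA-forskolin, 10.73 with KHS101 5 uM and 8.87 in DMSO, so it too was above DMSO on the treated arrays, and its difference did not reach 2-fold. Cyp26b1, the second hydroxylase, was 3.05-fold lower, at 9.42 with KHS101 1.7 uM and 11.03 with RA-forskolin against 11.29 in DMSO, so here RA-forskolin was near DMSO and KHS101 below it; a further, dim probe set differed by -0.03. Over the 13 measured members 3 were lower, 0 higher, and the median was -0.52, with 10 more at the floor on both arrays.

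The cAMP and CREB list gave no common direction, with 1 higher, 1 lower and a median of -0.10 over 17 measured genes. Nfil3, a circadian and CREB-responsive repressor, was 4.11-fold higher, at 10.40 with KHS101 1.7 uM, 8.36 with RA-forskolin and 9.57 in DMSO. The nuclear receptor Nr4a2 was at the floor with KHS101 1.7 uM and 6.77 with RA-forskolin, at least 3.41-fold lower. Its DMSO level was 6.99, so RA-forskolin stood near DMSO and KHS101 below it. Crem, a CREB relative with an early cAMP-induced form, was 9.26 and 9.87, and its 4 other probe sets above the floor differed by between -0.58 and -0.07.

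Genes of the oligodendrocyte lineage were lower with KHS101, with 8 of 17 measured members called lower, 0 higher and a median of -0.93. Mbp, myelin basic protein, had 10.54 with KHS101 1.7 uM and 13.36 with RA-forskolin, and 9.96 with KHS101 5 uM and 12.07 in DMSO. DMSO lay between the treatments, with RA-forskolin above it and both KHS101 arrays below. Another probe set of Mbp differed by -3.50 and a dim one by -0.36. The same order of arrays was found for Ugt8, which makes myelin galactolipids (8.97, 10.93, 8.58 and 10.21), and for Zfp488, a myelination factor (9.08, 11.20, 8.25 and 10.13). Fa2h, the fatty acid hydroxylase of myelin lipids, was 6.20-fold lower, with DMSO at 6.61, near KHS101 1.7 uM at 6.52. Earlier lineage factors were lower by under 2-fold, Olig2 by -0.87 and Sox10 by -0.90. In RNA from whole cultures, fewer cells of a type and less RNA per cell cannot be told apart.

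Astrocyte genes had 7 lower and 2 higher of 11 measured, with a median of -1.36. Slc15a2, a peptide transporter, was 10.3-fold lower, with 5.70 for KHS101 1.7 uM and 9.06 for RA-forskolin, while KHS101 5 uM (5.51) and DMSO (5.18) were near the floor. Cp, ceruloplasmin, the ferroxidase, was 6.82-fold lower, also with RA-forskolin (9.30) the one array away from the others, which lay between 5.86 and 6.53. Hepacam, an adhesion protein of glia, and Ndrg2 were 2.94-fold and 2.89-fold lower. S100b, 13.44 and 14.21, was not called. Cd44, the hyaluronan receptor, ran against the list and was 19.7-fold higher, with 9.40 for KHS101 1.7 uM, 5.10 for RA-forskolin, 10.20 for KHS101 5 uM and 6.14 for DMSO. Gfap, Aqp4, Slc1a2 and Gja1, which define mature astrocytes, were at the floor on both arrays, as were 7 more of the 22 genes.

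**Figure D4:**
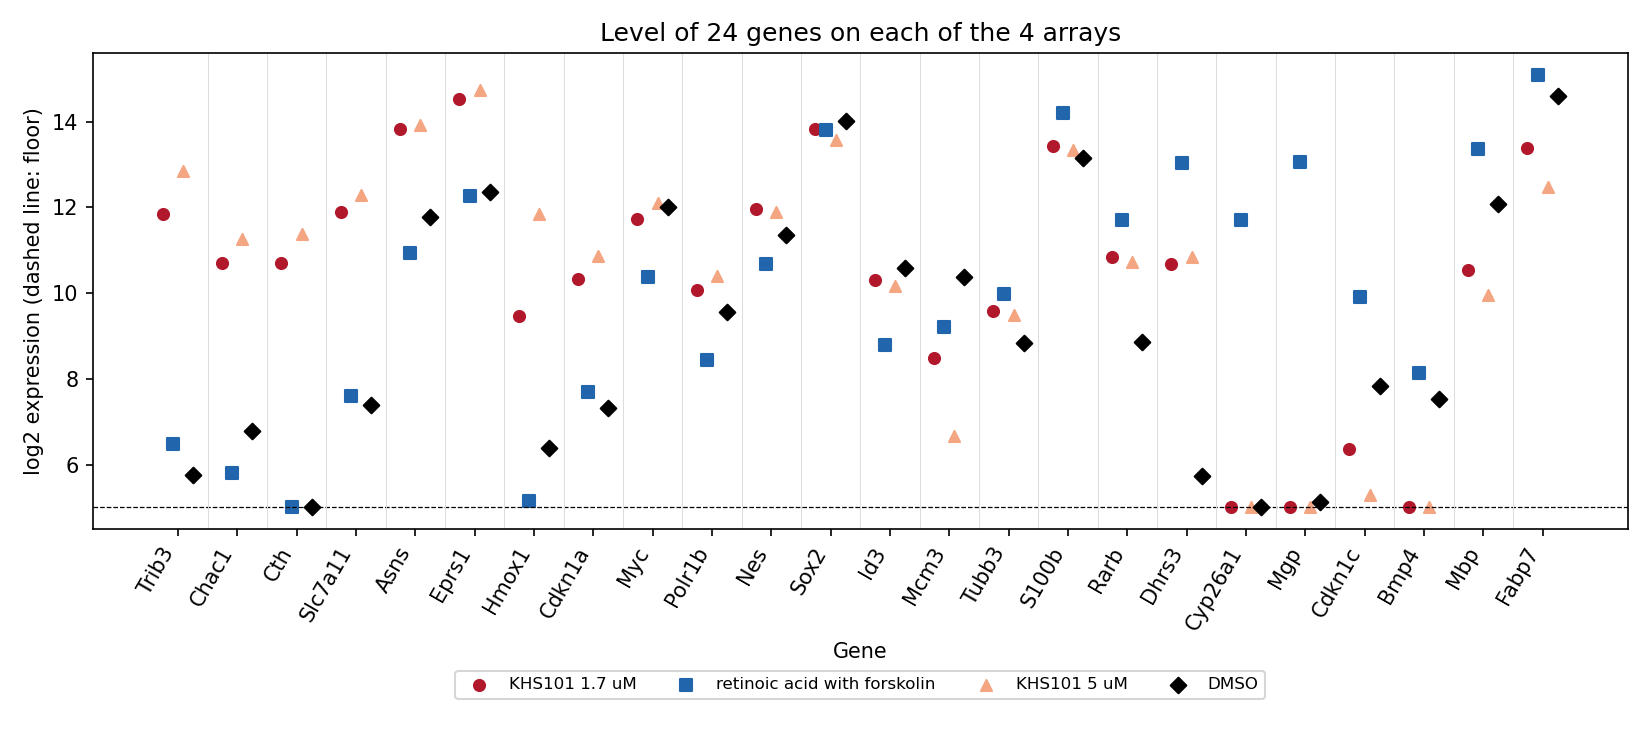
Log2 expression of 24 genes on the KHS101 1.7 uM, RA-forskolin, KHS101 5 uM and DMSO arrays, 1 point per array, with the floor dashed. Stress genes on the left are high on both KHS101 arrays, Myc and Polr1b are lowest with RA-forskolin, and Cyp26a1 and Mgp are above log2 6 with RA-forskolin alone.

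Progenitor and radial glia genes split, with 5 higher and 2 lower of 12 measured. Nes was 2.46-fold higher, and Hes1, an effector of Notch signalling, 2.33-fold. Tnc, an extracellular glycoprotein of the stem cell niche, and Hopx read 6.96 and 6.55 with KHS101 1.7 uM against the floor, calls that do not hold with a floor of log2 6. Fabp7, a brain lipid-binding protein of radial glia, was 3.26-fold lower, at 13.39 and 15.09, with 12.48 for KHS101 5 uM and 14.59 for DMSO, and Sox3 was 3.33-fold lower. Sox2 differed by 0.02.

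Neuronal genes showed no shared direction between the treatments. Of 16 measured genes of immature neurons 1 was higher and 1 lower, with a median of 0.13, and 10 more were at the floor on both arrays. Sox11, a factor of newborn neurons, was 2.10-fold higher with KHS101, and the kinase gene Dclk1 2.28-fold lower, at 10.46 with KHS101 1.7 uM and 11.65 with RA-forskolin against 8.17 in DMSO. Tubb3, the neuronal tubulin, was 9.59 with KHS101 1.7 uM and 9.98 with RA-forskolin, beside 9.48 with KHS101 5 uM and 8.85 in DMSO, so all treated arrays were a little above DMSO. Among 18 measured genes of mature neurons and synapses 3 were higher and 3 lower. Camk2b, a calcium-dependent kinase subunit, was 5.74-fold higher, Gad1, which makes GABA, at least 4.12-fold and Eno2, the neuronal enolase, 2.93-fold. Synpo, a protein of dendritic spines, the sodium channel gene Scn3a and the glutamate receptor gene Gria2 were 3.02-fold, 3.32-fold and 2.25-fold lower. Synpo was above DMSO with both treatments, at 8.42 and 10.01 against the floor. Map2 differed by -0.11, and 20 further genes of this list, among them Rbfox3 and Snap25, were at the floor on both arrays.

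Signalling pathways gave scattered calls. Bmp4, a ligand that favours glial fates, had 5.01 with KHS101 1.7 uM, 8.15 with RA-forskolin, the floor with KHS101 5 uM and 7.53 in DMSO. The KHS101 1.7 uM value is in effect at the floor, so Bmp4 was at least about 8.78-fold lower. Id3, a target of BMP signalling that blocks bHLH factors, went the other way and was 2.84-fold higher, at 10.30 and 8.79, with the RA-forskolin array below DMSO at 10.58. Of the 15 measured BMP and ID genes 3 were higher and 1 lower. Jag1, a Notch ligand, was 3.28-fold higher. Tgif1 and Tgif2, repressors of TGF-beta signalling, were 4.19-fold and 3.78-fold higher, while Pmepa1, a target and brake of that pathway, was 5.13-fold lower. In the Wnt list Znrf3, Nkd1 and Tcf7l2 were lower and Lef1 was higher, each by close to 2-fold. Spry4, a feedback inhibitor of FGF signalling, was 2.40-fold higher.

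Metabolic genes outside amino acid supply differed less. Of 31 hypoxia and glycolysis genes 6 were higher and 2 lower, with a median of 0.23. Vegfa, the vascular growth factor, which ATF4 and HIF both induce, was 11.4-fold higher, with 10.13 and 6.62 for KHS101 1.7 uM and RA-forskolin and 11.02 and 7.40 for KHS101 5 uM and DMSO. Ndrg1, a stress- and hypoxia-induced gene, and Gys1, muscle-type glycogen synthase, were 4.08-fold and 3.21-fold higher. Epas1, which encodes HIF-2 alpha, was 3.85-fold lower, while Arnt, the partner of the HIF proteins, was 6.69 with KHS101 1.7 uM and 6.95 with RA-forskolin. None of 28 respiratory chain genes was called. Of 20 cholesterol synthesis genes 18 had a positive difference, yet Mvd alone passed 2-fold, at 2.31-fold.

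Chemokine and matrix genes were mostly lower with KHS101 than with RA-forskolin where they were called. Ccl2, a monocyte attractant, had 11.09 with KHS101 1.7 uM, 13.88 with RA-forskolin, 10.97 with KHS101 5 uM and 8.41 in DMSO, 6.92-fold lower with KHS101 yet above DMSO with every treatment. Its neighbour in function Ccl7 was 9.18 with RA-forskolin and at the floor on the other 3 arrays. Ackr3, a scavenging chemokine receptor, was 6.94-fold lower, with DMSO (8.41) near RA-forskolin (8.23). Of 24 matrix and integrin genes 5 were lower and 2 higher. Besides Mgp the lower ones included Nid2, a basement membrane protein, at 5.69 with KHS101 1.7 uM, 8.86 with RA-forskolin and 8.48 in DMSO. The collagen gene Col9a1 was lower too, at 6.83 with KHS101 1.7 uM and 8.80 with RA-forskolin. Interferon-inducible genes were divided. Ifi27l2b, an interferon-inducible membrane protein gene, was 40.3-fold higher, with 12.30 and 12.96 on the KHS101 1.7 uM and 5 uM arrays and 6.97 and 6.77 with RA-forskolin and in DMSO. Mx2, an antiviral GTPase, was at the floor with KHS101 1.7 uM, 8.25 with RA-forskolin and 7.87 in DMSO, at least 9.52-fold lower.

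Further large differences fell outside the lists, which hold 166 of the 972 called genes. On the KHS101 side were Klf4, a reprogramming and stress-responsive factor, at 8.58 with KHS101 1.7 uM and the floor with RA-forskolin, and Cpeb1, which controls polyadenylation of stored messages, at 8.30 and 5.17. Myof, a membrane repair protein, was 7.98-fold higher and Gadd45b, a stress sensor, at least 10.0-fold. On the RA-forskolin side Cdhr2, a protocadherin-like adhesion protein, was 17.7-fold lower, at 5.74 and 9.89, with DMSO at 6.84. Txnip, a glucose-responsive inhibitor of thioredoxin, was at the floor on both KHS101 arrays but 8.78 with RA-forskolin and 7.81 in DMSO, at least 13.7-fold lower. Tesc, a calcium-binding protein, read 7.19 and 10.48 with KHS101 1.7 uM and RA-forskolin against the floor in DMSO. Prkcq, a protein kinase C, and Cyp2j3, an arachidonic acid epoxygenase, were 10.2-fold and 9.73-fold lower.

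Markers of cells other than neural progenitors and glia were mostly at the floor. Among 13 microglia and macrophage genes P2ry12 was the sole one measured, at the floor with KHS101 1.7 uM and 8.50 with RA-forskolin, with DMSO at 7.66, and the defining Aif1, Cx3cr1 and Csf1r were at the floor on both arrays. All 8 ependymal and choroid genes were at the floor on both. Of 15 fibroblast and meningeal genes 6 were measured. Their summed linear level was 7029 with KHS101 1.7 uM and 19180.5 with RA-forskolin, mainly from Pdgfra and Mgp. Mgp was 13.06 with RA-forskolin but at the floor with KHS101 1.7 uM, so it adds nothing to the KHS101 sum. Col1a1, Col1a2, Col3a1 and Dcn were at the floor. Of 13 endothelial and pericyte genes 4 were measured, including Cd93, at 8.92 with KHS101 1.7 uM against the floor, and Kdr, at 6.54 with RA-forskolin against the floor, with Pecam1 and Cldn5 at the floor on both. Of 8 Schwann cell and neural crest genes 5 were measured, among them Pmp22, a myelin protein that was 2.63-fold lower. The part of such cells in the differences was not tested.

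The difference KHS101 5 uM minus DMSO is the sole contrast of KHS101 with a group without it that uses neither of these arrays. There 526 of 8543 measured genes were higher (6.16%) and 692 lower (8.10%). Of the 509 genes higher with KHS101 1.7 uM than with RA-forskolin, 508 were measured in that pair, 481 (94.7%) had the same sign and 254 (50.0%) passed 2-fold the same way, with 1 past it the opposite way. These 254 are 48.3% of the 526. Of the 463 lower genes 445 were measured there, 383 (86.1%) had the same sign, 180 (40.4%) passed 2-fold the same way and 15 the opposite way, and the 180 are 26.0% of the 692. Across 8485 genes Pearson's r between the differences was 0.63, and genes are not independent replicates.

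Placed beside DMSO, the higher genes had a median log2 difference of 0.86 with KHS101 1.7 uM and -0.60 with RA-forskolin, and the lower genes -0.51 and 0.90. Both use the same DMSO array. The 15 lower genes that were opposite in the other pair include Dhrs3, Ccl2, Synpo, Tesc, Egr2, Ak4 and Dclk1, in which both KHS101 arrays lay above DMSO and RA-forskolin lay further above it. Egr2, an immediate early factor, had 7.12 with KHS101 1.7 uM, 8.97 with RA-forskolin, 8.12 with KHS101 5 uM and the floor in DMSO, and Ak4, an adenylate kinase of mitochondria, 9.50, 10.87, 9.32 and 7.91.

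**Figure D5:**
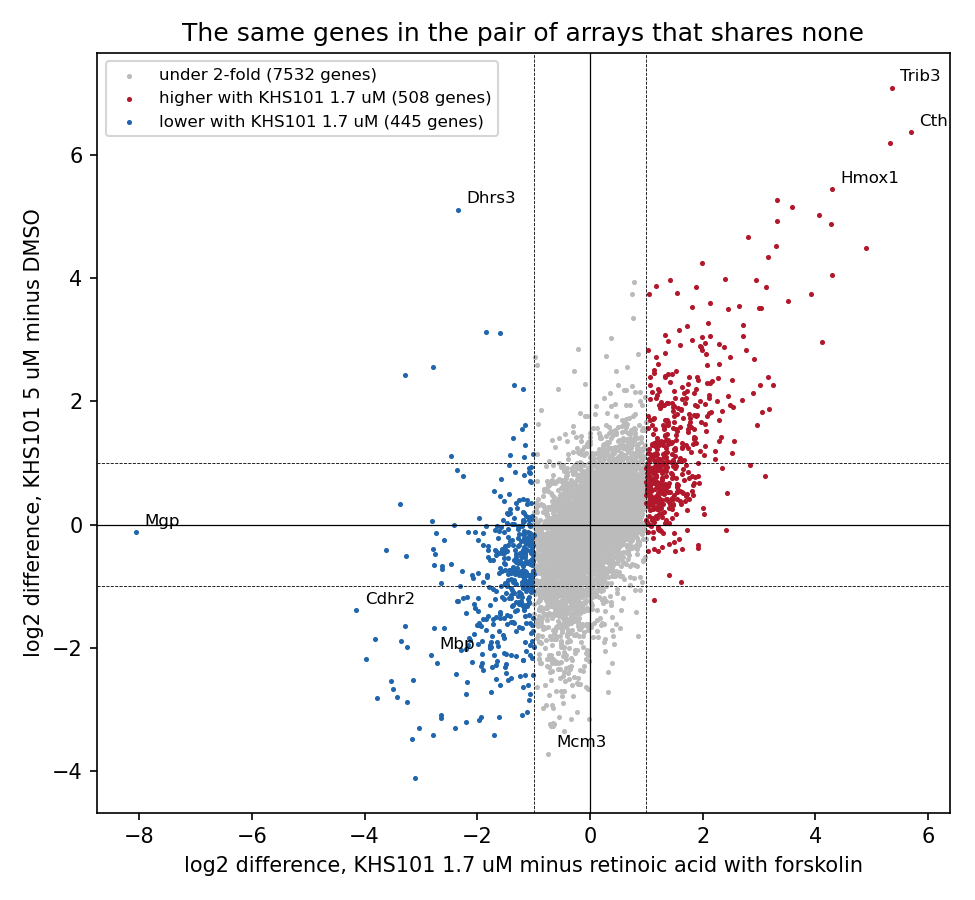
Log2 difference of each gene for KHS101 1.7 uM minus RA-forskolin (horizontal axis) and for KHS101 5 uM minus DMSO (vertical axis), pairs of arrays that share none, with dashed lines at 2-fold. Trib3, Cth and Hmox1 lie high on both axes, Mgp is low on the horizontal axis alone, Mcm3 mainly on the vertical axis, and Dhrs3 is opposite.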

How the data were processed

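RNA of rat hippocampal progenitor cells was hybridised to Affymetrix rat arrays, 1 array per treatment, and samples were grouped by their treatment label. The deposited values are log2 expression for 31099 probe sets; GCRMA and R 2.6.2 are named, per the submitters' processing notes, with no role given. GCRMA values without specific signal have no meaningful differences, so the authors' log2 values under 5 were raised to 5 here. The 4 sorted columns differed by at most 0.19 at equal rank, so these values cannot show a common shift of every gene.

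Probe sets took gene symbols from the platform annotation: 20826 had 1 gene, 436 several and 9780 none, and 20758 of the named ones matched RefSeq gene IDs. Each gene is represented by the probe set whose mean level on the 4 arrays was highest. A gene was measured if above the floor on at least 1 of the 2 arrays, and called at a log2 difference of 1 or more in size (2-fold). With no replicate there is no p-value, and 1 array a side limits the precision. Of 956 listed genes 866 were named on the array, and the rest were not analysed here. Promoter sequences are RefSeq's (GRCr8).

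Named genes are the 15 largest differences each way among genes with signal on both sides, the 10 largest bounds each way, up to 4 called members of each of 45 lists in the direction of its median and 2 in the other, and 26 always given. The text leaves some of them out. Further genes it names, and the promoters printed, were chosen after their values were seen. The members and lists were chosen with earlier results of these data known. Alternatives were the floor, the choice of probe set, filters, quantile normalization and the fold threshold. The calculation was tested on simulated data, made by adding known shifts to the DMSO values without noise. Such a test covers the arithmetic alone. Python 3.11.15, pandas 2.3.3, numpy 2.4.6 and matplotlib 3.10.9 were used.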

Additional observations from a re-analysis of the deposited data

Results flagged for a closer look

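Signal was also present in the 9780 probe sets without a gene name, which the gene counts leave out. Of these, 2516 were measured, 122 (4.85%) were higher by 2-fold with KHS101 1.7 uM than with retinoic acid and forskolin, and 192 (7.63%) were lower, with log2 differences between -4.32 and 4.39. Among the higher ones 72 had a KHS101 1.7 uM level at least 2-fold above DMSO. Among the lower ones 97 had a level with retinoic acid and forskolin at least 2-fold above DMSO. The shares of measured probe sets may be read beside the 5.93% and 5.39% of named genes, and no difference between them was tested.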

How the results depend on the processing

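The counts of 509 higher and 463 lower genes stayed within 1.5 times under floors of log2 4 and 6, no floor, the median over a gene's probe sets, quantile normalization, and both filters on low values (442 to 579 higher and 404 to 544 lower). At a 1.5-fold threshold they were 1189 and 1124, and at 3-fold 169 and 151. The median of the p53 targets was -0.0223 with no floor and all genes counted; that setting adds genes at background. No other list median and no called named gene was counted as reversed under these alternatives. Changes of sign in uncalled genes and in small list medians were not counted. Of 143 called named genes 121 passed 2-fold under every alternative, other than the thresholds, in which they were measured. The other 22 did not, among them Cd93, Mx2, Hspa9, Lonp1, Pop1 and Ndrg2 under the median over probe sets. The filter for signal on both arrays assessed 125 named genes, against 153 at a floor of log2 4. Genes at the floor on 1 array, such as Cth, Mgp and Cyp26a1, were not assessed under it. Signal near the floor limits what can be read, as calls were most frequent there. No paired analysis was possible because each group is 1 array.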

Other observations

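Gene families were also counted by the letters of their symbols, a grouping chosen after the values were seen, and the families below were picked from 74 for their counts. Over all measured genes 5.93% were higher and 5.39% lower. Of 141 measured solute carriers 21 (14.9%) were higher by 2-fold with KHS101 1.7 uM than with retinoic acid and forskolin, and 7 (4.96%) were lower, the second share near that of all genes. The 21 include the 8 higher amino acid transporters described above, and the median log2 difference of the 141 was 0.08. Among the higher ones outside the amino acid list were Slc25a33, a mitochondrial pyrimidine nucleotide carrier, at log2 levels of 9.84 and 7.76, Slc19a1, the reduced folate carrier, at 8.23 and 6.44, and Slc16a1, a lactate and pyruvate transporter, at 12.25 and 10.90, with KHS101 1.7 uM first. Of 39 measured genes named Wdr 7 (17.9%) were higher and 0 lower, with a median log2 difference of 0.10. Of 48 measured genes named Eif 5 (10.4%) were higher and 0 lower, with a median log2 difference of 0.35. This group holds translation initiation factors and also Eif4ebp1, the brake on translation described above, which is among the higher ones.

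Among 16 measured genes of the alpha/beta hydrolase family named Abhd, 0 were higher and 5 (31.2%) lower. The median log2 difference of the 16 was -0.06, so the family as a whole was not shifted. Abhd3, a phospholipase, had log2 levels of 8.47 with KHS101 1.7 uM and 10.32 with retinoic acid and forskolin, beside 8.04 with KHS101 5 uM and 9.74 in DMSO. Abhd16a stood at 8.54 and 9.81 and Abhd12, a lysophosphatidylserine lipase, at 8.36 and 9.59, again with KHS101 1.7 uM first. The counts describe the same 2 arrays.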
